A study of Mus musculus with 16 samples.

Results

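The genes described here are 10 heat shock chaperone genes of the cytosol and the mitochondria: Hsp90aa1, Hsp90ab1, Hspa8, Hspa1a, Hspa1b, Dnaja1, Dnajb1, Hsph1, Hspd1 and Hspe1. They were picked by symbol from the 55414 genes of a count table, with earlier results of the same data known. Hsp90aa1 had been singled out for a higher level with the Cre virus than with the GFP virus in TGF-beta, so the values of that comparison are given below as a description, with no test. The TGF-beta differences of Hsp90aa1 use the same libraries and carry no test either. RNA was sequenced in 16 libraries of cultured mouse cardiac fibroblasts, the matrix-producing cells of the heart. The groups were cells given a Cre adenovirus and TGF-beta, cells given a GFP adenovirus and TGF-beta, cells given the Cre virus without TGF-beta, and cells given the GFP virus without TGF-beta. Each group held 4 libraries, 1 from each of 4 cell preparations numbered 1 to 4 (preparations 1 and 4 male, 2 and 3 female). All groups were passage 2 cells that had been starved of serum for 24 h, carried an adenovirus and were collected 48 h after the stimulus was added. The treatment protocol says that the mice were Has2 fl/fl, Cre then removing exon 2 of the hyaluronan synthase gene Has2, whereas the genotype label reads Wild Type C57BL/6J. The protocol names bFGF beside TGF-beta at 20 ng/mL, and whether the cells without TGF-beta received bFGF is not stated. The sources used here give neither the age of the mice nor the number of hearts per preparation.

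Heat shock proteins hold unfolded or partly folded proteins and help them reach or regain their shape. In the cytosol, J-domain proteins hand clients to HSP70, exchange factors such as the HSP110 protein reset HSP70, and HSP90 takes over late-folding clients, among them kinases and the TGF-beta receptors. In mitochondria, the HSP60 barrel and its HSP10 lid fold imported proteins. The inducible members of these families are classical targets of heat shock factor 1, which binds inverted repeats of the unit NGAAN.

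Libraries held 17.9 to 48.7 M counts, and all 10 genes passed the filter on low counts, with 106 counts as the smallest value of any of them in a library. Has2 itself, the gene the Cre virus was meant to delete, averaged 16.5 ± 6.32 CPM (read counts scaled to library size, per 1e6; SD, n = 4) in Cre cells with TGF-beta and 16.8 ± 5.67 CPM in GFP cells with TGF-beta, and 14.7 ± 1.38 CPM in Cre cells against 18.7 ± 3.27 CPM in GFP cells. Neither difference passed the test (edgeR adjusted p = 0.9996 with TGF-beta and 0.9997 without), and the counts cover the whole gene, so they do not isolate exon 2. All 9 fibroblast markers had counts in every library. Of 8 cardiomyocyte markers, 3 or 4 had counts in all 4 libraries of a group. Myh6 was at 0 in 3 of the 4 groups, but no listed marker was at 0 throughout the Cre cells without TGF-beta. The 8 summed to between 3.12 CPM, in a library of GFP cells with TGF-beta, and 23.7 CPM, in a library of Cre cells without it. Libraries of preparation 4 stood apart for several of the chaperone genes, as shown next, and results are therefore also given without them.

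The cell preparation took the largest share of the variance for 5 of the 10 genes and TGF-beta for the other 5. The same count over all genes was not made. With 4 levels, the preparation can take up more chance variation than TGF-beta, which was only present or absent. Preparation 4 had the highest CPM in all 4 groups for 6 of the 10 genes (Hsp90aa1, Hspa8, Dnaja1, Hsph1, Hspd1 and Hspe1), a pattern shown by 13.9% of all 15285 genes tested. Preparation 2 had the lowest CPM in all 4 groups for 5 of the 10 (Hsp90aa1, Hspa1b, Dnaja1, Hsph1 and Hspd1), against 5.85% of all genes. Hsp90aa1, the stress-inducible cytosolic HSP90, showed the widest gap among the 10: its preparation 4 library stood at 2.58 to 4.02 times the median of the other 3 libraries of its group. For Hspd1 the same ratio ran from 1.57 to 1.80, and for Hsp90ab1, the constitutive HSP90, from 1.04 to 1.20. Hspa1a and Hspa1b, the stress-inducible HSP70 genes, differed in this respect between the viruses. Their preparation 4 library stood at 0.776 to 0.923 times the median of the others in Cre cells with or without TGF-beta, and at 1.32 to 1.56 times that median in GFP cells with or without TGF-beta. Splitting the variance of log2(CPM + 0.5) over the 16 libraries gave the preparation 84.9% for the J-domain gene Dnaja1, 72.3% for Hsp90aa1, 71.5% for the HSP110 gene Hsph1 and 61.0% for Hspa8, the constitutive HSP70. TGF-beta took the largest share for Hsp90ab1 (77.3%), for Hspd1, which encodes HSP60 (72.5%), for Hspa1b (61.4%), for Hspe1, which encodes HSP10 (55.0%), and for Hspa1a (43.9%). Over all genes tested the median share was 31.7% for the preparation, 29.6% for TGF-beta and 1.94% for the Cre virus. Sex is shared by preparations 1 and 4, and neither the sex nor any other feature of a preparation was tested as the source of these gaps.

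**Figure D1:**
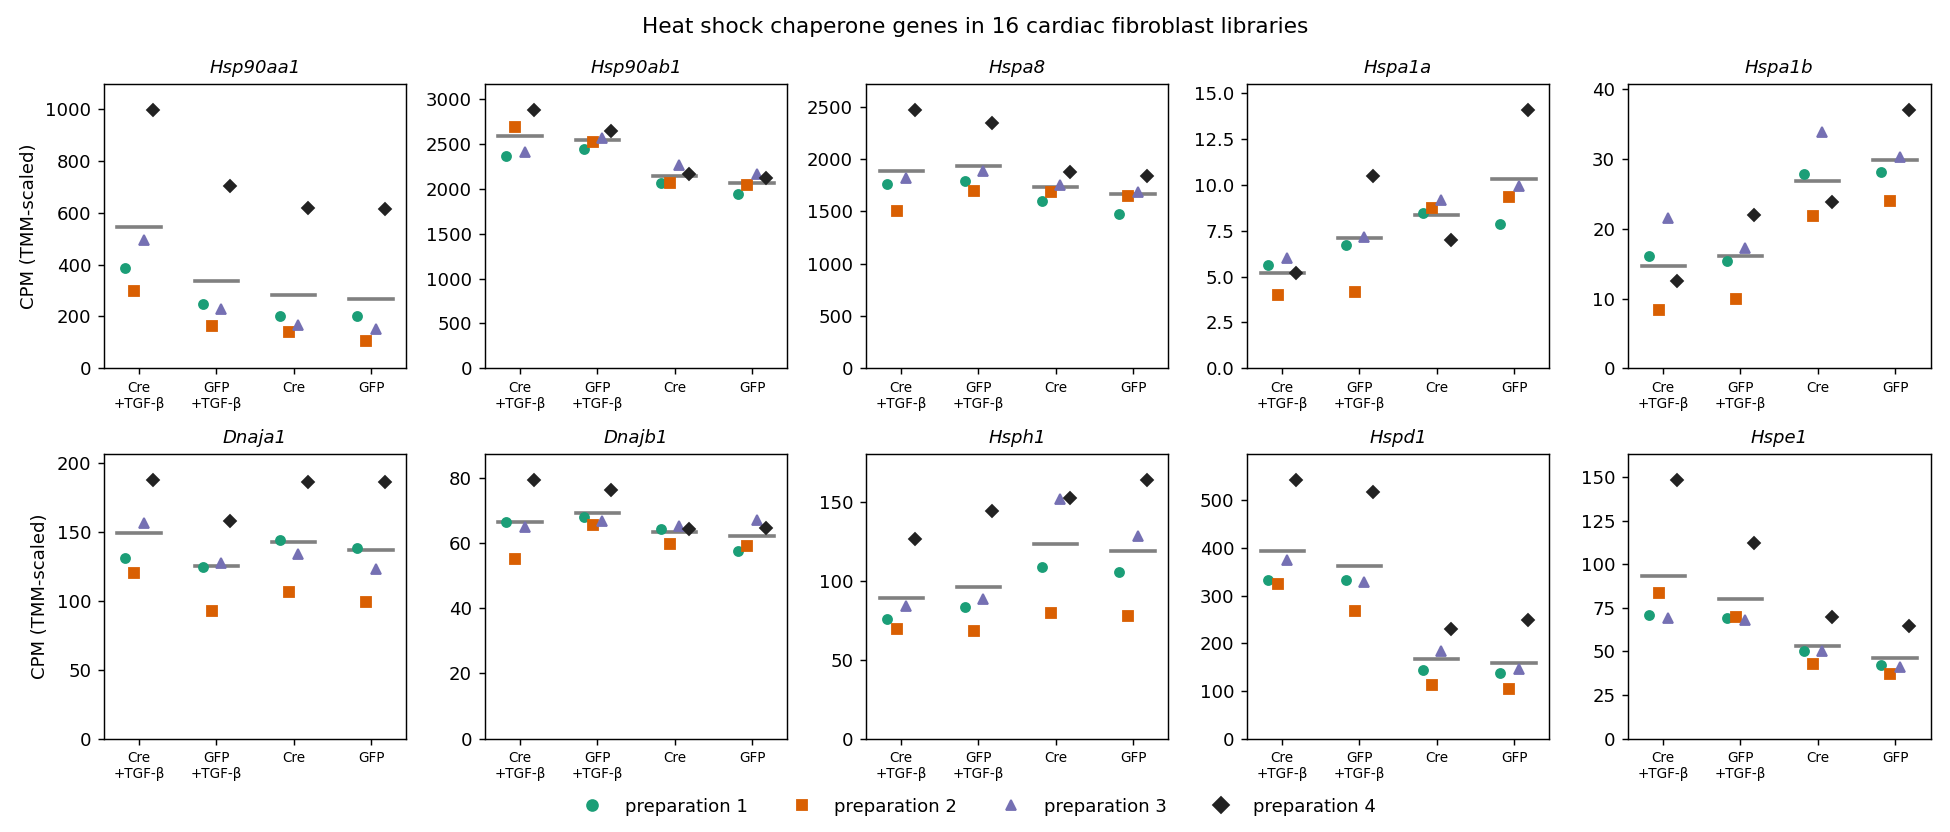
Level of each of the 10 heat shock chaperone genes in CPM (linear axis from 0, library sizes scaled by TMM) in every library, with a bar at the group mean (n = 4) and a symbol for each preparation. The black diamonds of preparation 4 lie on top in every group for Hsp90aa1, where they reach 997 CPM in Cre cells with TGF-beta, while Hspd1 and Hspe1 separate mainly by TGF-beta.

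**Figure D2:**
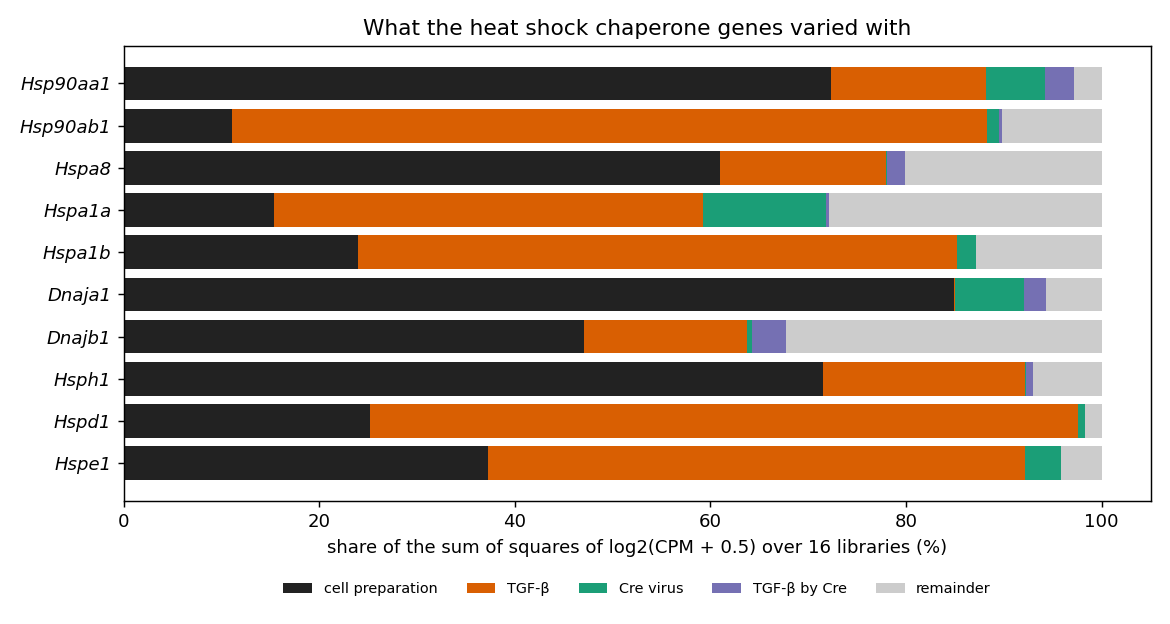
Share of the sum of squares of log2(CPM + 0.5) over 16 libraries (in percent) taken by the cell preparation, TGF-beta, the Cre virus, the interaction of both treatments, and the remainder, for each gene. The preparation takes 84.9% for Dnaja1 and 11.0% for Hsp90ab1, and the Cre virus at most 12.5%, for Hspa1a.

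To set the genes beside each other, CPM was divided by transcript length in kilobases. Hsp90ab1 was highest in each group, with means of 1025 CPM per kb in Cre cells with TGF-beta, 1008 in GFP cells with TGF-beta, 849 in Cre cells and 819 in GFP cells. Hspa8 came next, with 789, 806, 723 and 694 CPM per kb in the same 4 groups, and its libraries overlapped those of Hsp90ab1 in both groups with TGF-beta but in neither without it. Hsp90aa1, Hspd1 and Hspe1 followed in each group, between 59.7 and 166 CPM per kb, with overlapping libraries. Hsph1, Dnaja1 and Dnajb1, which encodes the J-domain partner of HSP70 in disaggregation, lay between 20.7 and 32.4 CPM per kb and overlapped each other in each group. Hspa1b (5.21 to 10.7) and Hspa1a (1.76 to 3.47) were lowest and apart from each other and from the rest in each group. These levels carry a limit from sequence: of the 50-base stretches of each transcript, 74.8% occur also in transcripts of other genes for Hspa8, 66.3% for Hspa1a, 62.3% for Hspa1b, 58.5% for Hsp90aa1 and 44.8% each for Hspd1 and Hspe1, whereas 4.5% do for Hsp90ab1, 0.4% for Dnajb1 and 0.0% for Hsph1. Hspa1a and Hspa1b share 58.8% and 62.3% of their stretches with each other. The sources used here do not say how reads matching several genes were counted.

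Hspd1 and Hspe1, the HSP60 and HSP10 genes, lie on opposite strands of mouse chromosome 1. For 1 of the RefSeq starts of Hspd1 they lie head to head and share the stretch between their starts. The stretch is shown because both genes rose with TGF-beta and because it holds a run of 4 heat shock factor units. RefSeq (build GRCm38.p6) gave promoter windows of 300 bases, 250 before and 50 after a start, for 7 of the 10 genes. The 30 bases below lie at chr1:55088053-55088082, in an annotated exon of GENCODE M21. The capitals mark the run of alternating TTC and GAA units, which begins 89 bases before the Hspe1 start on the plus strand and 144 bases before 1 of the RefSeq starts of Hspd1 on the minus strand.
Hspe1, plus strand: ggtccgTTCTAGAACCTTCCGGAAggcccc
Hspd1, minus strand: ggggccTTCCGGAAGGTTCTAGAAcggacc
The 3-unit motifs searched were GAANNTTCNNGAA and TTCNNGAANNTTC, which are each other's reverse complement, so that searching both motifs on 1 strand covers both strands. Either occurred in 0.603% of all 32851 promoter windows of the same length. The shorter 2-unit motifs GAANNTTC and TTCNNGAA, each its own reverse complement and each contained in the 3-unit ones, occurred in 7.86% and 8.52% of the windows. Either of these 2-unit motifs occurred in 15.1%. These shares are per window, while some of the genes had more than 1 window. Among the 7 genes, 3-unit matches lay in windows of Hspe1, Hspd1 and Hsph1, 2-unit matches in these and in Dnaja1, Hspa1a and Hspa1b, and no match in the windows of Dnajb1. The other window of Hspd1, at chr1:55088194-55088493, held no match, and the run shown lies after the start of Hspd1 in that window. The other windows of Dnaja1 held no match either. A match describes these letters and is not a binding site.

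TGF-beta against none in GFP cells asked how the chaperone genes differed with the growth factor when only the control virus was present. Hsp90aa1 is left out of the counts, since its level in GFP cells with TGF-beta was part of what singled it out. Of the other 9 genes, 3 rose (Hspd1, Hspe1 and Hsp90ab1), 1 fell (Hspa1b) and 5 stayed at or above an adjusted p of 0.05 (quasi-likelihood test of edgeR). By the same test 29.1% of all genes were called, 13.8% higher and 15.3% lower. That test did not pair the libraries by preparation, and the counts with the preparation as a block follow below. The median log2 difference of all 10 genes was 0.19, and that of all genes tested was -0.02. The median of the 10 was 0.348 with the block and GC content and length trends removed, and ran from -0.0728 to 0.249 with a library or a preparation left out.

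Hspd1 had 333, 267, 329 and 517 CPM in GFP cells with TGF-beta (preparations 1 to 4), against 138, 103, 147 and 249 CPM in GFP cells. Each library with TGF-beta was above each without it, and preparation 4 was highest on both sides. The log2 difference was 1.18 ± 0.29 (SE), adjusted p = 0.00604. Its partner Hspe1 had 69.2, 69.8, 68.0 and 112 CPM in GFP cells with TGF-beta, against 42.4, 37.0, 41.0 and 64.3 CPM in GFP cells. These groups did not overlap either, and the difference was 0.79 ± 0.26, adjusted p = 0.0326. Such a separation of the libraries was found for 15.1% of all genes with the TGF-beta libraries on top and for 14.7% with them below. The call of Hspd1 was lost when preparation 1 or preparation 3 was left out (log2 1.16 and 1.22, adjusted p = 0.0627 and 0.0535). The call of Hspe1 was lost without preparation 1, 2 or 3, without the preparation 4 library with TGF-beta (log2 0.58, adjusted p = 0.113), or without the GFP library of preparation 1, 2 or 3, with adjusted p from 0.0827 to 0.133 over these 7 cases. With the preparation as a block both calls held in full and with any preparation left out, at an adjusted p of at most 0.000322.

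Hsp90ab1, the abundant HSP90 of unstressed cells, had 2441, 2521, 2558 and 2640 CPM in GFP cells with TGF-beta, against 1938, 2042, 2158 and 2116 CPM in GFP cells. The change was small but the groups did not overlap, with a log2 difference of 0.30 ± 0.09, adjusted p = 0.0187. It was lost without preparation 1, 2 or 3 or without the GFP library of preparation 1 (log2 0.27 to 0.35, adjusted p from 0.0503 to 0.120), and with no filter on low counts (adjusted p = 0.0570). With the block it held in full and with any preparation left out, at an adjusted p of at most 0.0186. Hsp90aa1 had 247, 161, 229 and 703 CPM in GFP cells with TGF-beta, against 203, 104, 153 and 614 CPM in GFP cells. It was higher with TGF-beta within each preparation, while the groups overlapped, with preparation 4 far above the other 3 on both sides. The log2 difference was 0.32 ± 0.63, and with the preparation as a block it was 0.41 ± 0.13, both given with no test. It was -0.34 without the TGF-beta library of preparation 4, 1.14 without the GFP library of preparation 4 and 0.47 without both.

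The inducible HSP70 genes lay on the other side, lower with TGF-beta. Hspa1b had 15.4, 9.96, 17.3 and 21.9 CPM in GFP cells with TGF-beta, against 28.1, 23.9, 30.3 and 37.1 CPM in GFP cells. No library with TGF-beta reached the lowest without it, and the log2 difference of Hspa1b was -0.89 ± 0.27, adjusted p = 0.0219. The call was lost without the TGF-beta library of preparation 1 or 2, the GFP library of preparation 4, or the whole of preparation 1 or 3, with adjusted p from 0.0527 to 0.133 and log2 differences from -0.71 to -0.90. With the block it held in full and with any preparation left out, at an adjusted p of at most 0.00963. Hspa1a had 6.69, 4.14, 7.14 and 10.5 CPM in GFP cells with TGF-beta, against 7.86, 9.32, 9.91 and 14.1 CPM in GFP cells. It was lower with TGF-beta in each preparation, but its groups overlapped, and the difference of -0.53 ± 0.24 did not pass (adjusted p = 0.114). It passed without the TGF-beta library of preparation 4 (-0.79, adjusted p = 0.0215), without preparation 4 as a whole (-0.61, adjusted p = 0.0371) and with the block (-0.56, adjusted p = 0.0365). The blocked call was lost without preparation 1, 2 or 3 (adjusted p = 0.0612, 0.204 and 0.118) and with GC content and length trends removed (-0.43, adjusted p = 0.0962).

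The sequences upstream of both genes are shown because reads cannot be assigned with certainty between them and because both lay lower with TGF-beta in every preparation. On mouse chromosome 17, at chr17:34959239-34959488 for Hspa1b and chr17:34972157-34972406 for Hspa1a (both minus strand, GRCm38.p6), the 250 bases before the start run as follows, with the single GAANNTTC match in capitals.
Hspa1b: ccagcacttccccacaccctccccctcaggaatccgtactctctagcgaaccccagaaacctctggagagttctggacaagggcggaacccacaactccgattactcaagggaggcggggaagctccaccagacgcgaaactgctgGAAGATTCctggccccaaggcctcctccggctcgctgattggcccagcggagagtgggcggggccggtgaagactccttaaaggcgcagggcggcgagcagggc
Hspa1a: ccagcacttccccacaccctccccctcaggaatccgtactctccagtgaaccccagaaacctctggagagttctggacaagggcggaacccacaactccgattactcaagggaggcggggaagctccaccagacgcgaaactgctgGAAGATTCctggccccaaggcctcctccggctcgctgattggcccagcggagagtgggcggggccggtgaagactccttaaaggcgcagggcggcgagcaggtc
Counted from 1 at the 5' end, with the Hspa1a base first, the differences were C44T, T47C and T249G. The match lies 104 bases before the start in both. Summing the counts of both genes, a choice made after the data were seen, gave a log2 difference with TGF-beta of -0.83 ± 0.25 in Cre cells (adjusted p = 0.0221) and of -0.79 ± 0.25 in GFP cells (adjusted p = 0.0285). As a share of HSP70 transcripts (Hspa1a plus Hspa1b over these plus Hspa8, per kb) the inducible genes made up 0.892 ± 0.307% in Cre cells with TGF-beta against 1.69 ± 0.315% in Cre cells, and 0.984 ± 0.201% in GFP cells with TGF-beta against 1.99 ± 0.254% in GFP cells (SD, n = 4).

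The HSP70 partners and Hspa8 differed less. Hsph1, the HSP110 exchange factor, had 83.0, 68.3, 88.3 and 144 CPM in GFP cells with TGF-beta, against 106, 77.5, 128 and 164 CPM in GFP cells. It was lower with TGF-beta in each preparation while its groups overlapped, and the difference of -0.31 ± 0.28 did not pass (adjusted p = 0.453). With the block it passed (-0.31 ± 0.10, adjusted p = 0.0160), but not without preparation 1 or 3 (adjusted p = 0.0910 and 0.0828), nor with GC content and length trends removed (-0.16, adjusted p = 0.178). Hspa8 had 1698 to 2345 CPM in GFP cells with TGF-beta and 1475 to 1839 CPM in GFP cells, a log2 difference of 0.22 ± 0.14 (adjusted p = 0.284). With the block its adjusted p was 0.0499, a call lost without preparation 1, 3 or 4 (0.207, 0.0841 and 0.0820), and with GC content and length trends removed it was 0.000191 (log2 0.37). Dnaja1 had 92.5 to 158 CPM in GFP cells with TGF-beta and 99.0 to 186 CPM in GFP cells (-0.12 ± 0.22, adjusted p = 0.716). Dnajb1 had 65.5 to 76.1 CPM in GFP cells with TGF-beta and 57.6 to 67.0 CPM in GFP cells (0.15 ± 0.10, adjusted p = 0.282). Neither J-domain gene passed with the block, and Dnajb1 did with GC content and length trends removed (0.33, adjusted p = 0.000189). In the blocked fit 4 of the 9 genes rose and 3 fell, while 49.1% of all genes were called, 22.6% higher and 26.5% lower.

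A stretch just after a start of Hsph1 is shown because it also holds a 3-unit match. Whether such matches have any tie to the level of a gene was not tested. The capitals mark the match, which begins 36 bases after a RefSeq start, at chr5:149636287-149636316 on the minus strand (GRCm38.p6), in an annotated exon of GENCODE M21.
Hsph1: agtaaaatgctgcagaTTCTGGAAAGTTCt

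TGF-beta against none in Cre cells asked the same of the cells given the Cre virus, in libraries that the GFP comparison does not use. Hsp90aa1 is left out of these counts too. Of the other 9 genes, 3 rose (Hspd1, Hspe1 and Hsp90ab1), 2 fell (Hspa1b and Hspa1a) and 4 did not pass, while 30.3% of all genes were called, 14.0% higher and 16.3% lower. The median log2 difference of all 10 genes was 0.10, and that of all genes tested was 0.02. The median of the 10 was 0.298 with the block and GC content and length trends removed, and ran from -0.0278 to 0.205 with a library or a preparation left out.

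Hspd1 had 332, 325, 375 and 544 CPM in Cre cells with TGF-beta, against 144, 113, 183 and 230 CPM in Cre cells. The groups did not overlap, and the log2 difference was 1.23 ± 0.29, adjusted p = 0.00453, a call that held with any library or preparation left out. Groups lay apart for 12.5% of all genes with the TGF-beta libraries on top and for 15.8% with them below. Hspe1 had 71.2, 83.8, 69.2 and 149 CPM in Cre cells with TGF-beta, against 50.4, 43.0, 50.04 and 69.5 CPM in Cre cells. Its groups touched, since the lowest library with TGF-beta lay just under the highest without it, and the difference was 0.81 ± 0.26, adjusted p = 0.0287. Without the TGF-beta library of preparation 4 the difference was 0.49, adjusted p = 0.110. The call was also lost without the Cre library of preparation 1, 2 or 3 or without preparation 1, 2 or 3 as a whole, with adjusted p from 0.0645 to 0.126, and with only the compared libraries in the fit (adjusted p = 0.0523). Per kb, Hspd1 stood at 1.41 ± 0.258 times the level of Hspe1 in Cre cells with TGF-beta and at 0.994 ± 0.147 times in Cre cells (SD, n = 4). The same ratio was 1.44 ± 0.152 in GFP cells with TGF-beta, against 1.08 ± 0.148 in GFP cells.

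Hsp90ab1 had 2359, 2687, 2409 and 2880 CPM in Cre cells with TGF-beta, against 2063, 2058, 2268 and 2166 CPM in Cre cells. The groups did not overlap, and the log2 difference was 0.27 ± 0.09, adjusted p = 0.0296. It was lost without the TGF-beta library of preparation 2 or 4, the Cre library of preparation 1 or 2, or preparation 1 or 2 as a whole (log2 0.22 to 0.30, adjusted p from 0.0659 to 0.202), with no filter (adjusted p = 0.0966) and with only the compared libraries in the fit (adjusted p = 0.128). Hspa1b had 16.1, 8.40, 21.5 and 12.5 CPM in Cre cells with TGF-beta, against 27.8, 21.8, 33.9 and 23.9 CPM in Cre cells. Its log2 difference was -0.88 ± 0.27, adjusted p = 0.0227, with the highest library with TGF-beta just below the lowest without it. The call was lost without the TGF-beta library of preparation 2 or 4, the Cre library of preparation 1 or 3, or preparation 1 as a whole, with adjusted p from 0.0515 to 0.119. Hspa1a had 5.64, 3.99, 6.01 and 5.21 CPM in Cre cells with TGF-beta, against 8.46, 8.71, 9.16 and 6.98 CPM in Cre cells. These groups did not overlap, and the difference of -0.67 ± 0.24 passed narrowly (adjusted p = 0.0477). The Hspa1a call was lost in 11 of the 12 fits without a library or a preparation (adjusted p from 0.0503 to 0.162, log2 from -0.54 to -0.75), the exception being the fit without preparation 4 (adjusted p = 0.0133). It was also lost with RLE scaling (adjusted p = 0.0503), with no filter (0.0623) and with GC content and length trends removed (0.0628). With the block the calls of Hspd1, Hspe1, Hsp90ab1 and Hspa1b held in full and with any preparation left out, at an adjusted p of at most 0.0460.

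Hsph1 had 75.9, 69.2, 83.9 and 126 CPM in Cre cells with TGF-beta, against 109, 79.7, 152 and 153 CPM in Cre cells. It was lower with TGF-beta in each preparation, and the difference of -0.47 ± 0.28 did not pass (adjusted p = 0.220), whereas it did with the block (-0.47 ± 0.10, adjusted p = 0.000932) and with any preparation left out of that fit. Hspa8 (1505 to 2474 CPM in Cre cells with TGF-beta, 1603 to 1881 CPM in Cre cells), Dnaja1 (120 to 188 CPM and 106 to 186 CPM) and Dnajb1 (54.9 to 79.4 CPM and 59.6 to 65.1 CPM) overlapped and did not pass with or without the block. Their log2 differences were 0.13 ± 0.14, 0.06 ± 0.22 and 0.07 ± 0.10, with adjusted p of 0.528, 0.845 and 0.638. With the block and GC content and length trends removed, Hspa8 (0.31, adjusted p = 0.000864) and Dnajb1 (0.29, adjusted p = 0.000543) passed. With the block 3 of the 9 genes rose and 3 fell, while 52.5% of all genes were called, 25.2% higher and 27.3% lower. Hspa1a was among the 3 (adjusted p = 0.0110), and not without preparation 2 (0.0623).

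Hsp90aa1 had 386, 299, 493 and 997 CPM in Cre cells with TGF-beta, against 204, 139, 166 and 617 CPM in Cre cells. Each preparation was higher with TGF-beta, by 0.92, 1.11, 1.57 and 0.69 on the log2(CPM + 0.5) scale, while the groups overlapped because the Cre library of preparation 4 exceeded 3 of the 4 libraries with TGF-beta. The fitted log2 difference was 0.95 ± 0.63, and with the block it was 1.09 ± 0.13. It was 0.48 without the TGF-beta library of preparation 4 and 1.69 without the Cre library of preparation 4. It is given with no test.

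**Figure D3:**
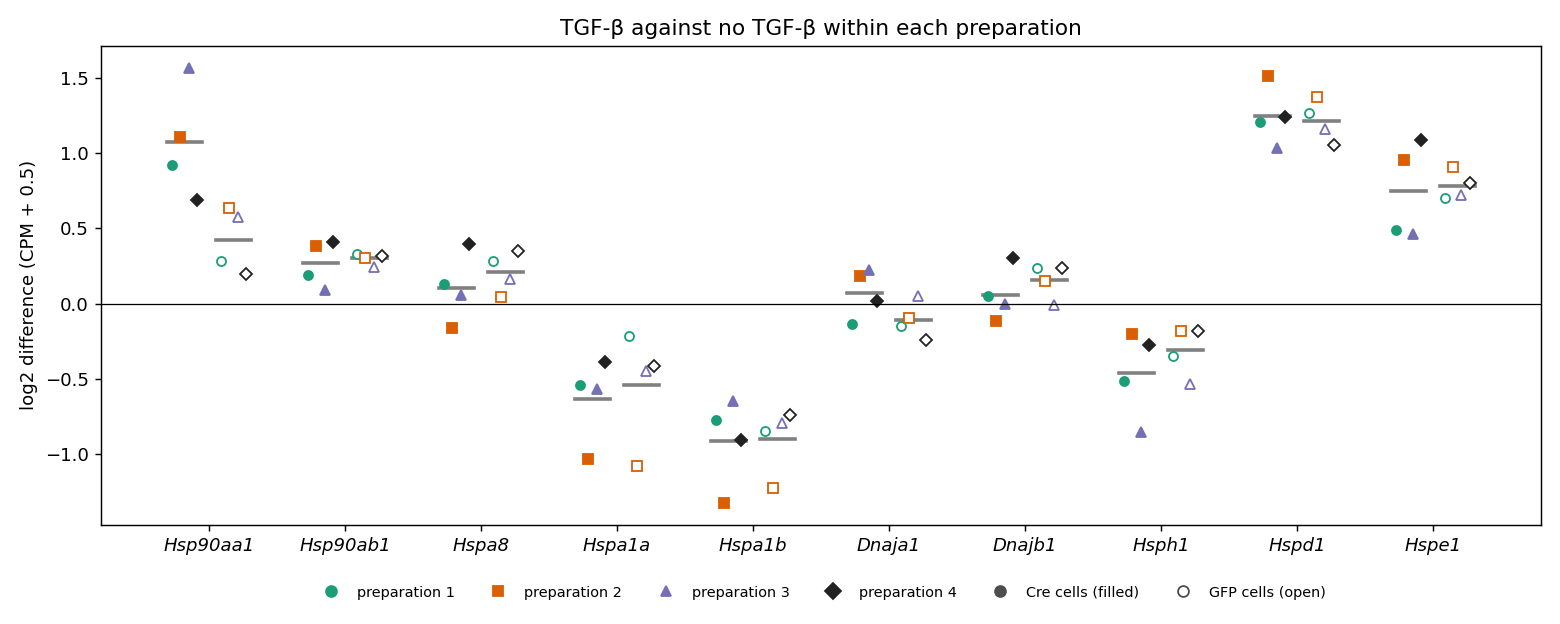
Log2 difference of CPM + 0.5 between the library with TGF-beta and the library without it of the same preparation, for each gene, with Cre cells as filled and GFP cells as open symbols and a bar at the mean of 4 preparations. Hspd1 lies between 1.03 and 1.52 in all 8 pairs, Hspa1b between -1.33 and -0.65, and Dnaja1 and Dnajb1 lie around 0.

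Without preparation 4, whose libraries stood apart, the counts were 3 higher and 2 lower of the 9 genes in Cre cells, against 20.2% higher and 22.5% lower among all genes in that fit. In GFP cells they were 3 higher and 2 lower of the 9 (Hspa1a being added), against 18.6% higher and 21.3% lower among all genes. Direction within preparations was shared by all 4 for 6 of the 9 genes in Cre cells, against 55.2% of all genes, and for 7 of the 9 in GFP cells, against 59.4% of all genes. RNA of other cell types' markers also differed with TGF-beta. Summed CPM of the 7 endothelial markers was 13.3 to 20.4 in Cre cells with TGF-beta against 30.8 to 44.2 in Cre cells, and 14.5 to 24.7 in GFP cells with TGF-beta against 32.7 to 45.8 in GFP cells. The 6 pericyte and smooth muscle markers overlapped narrowly. They summed to 37.9 to 89.6 CPM in Cre cells with TGF-beta against 87.7 to 174 in Cre cells, and to 40.5 to 97.2 in GFP cells with TGF-beta against 96.9 to 205 in GFP cells. The 8 macrophage markers overlapped and summed to 379 to 880 CPM in Cre cells with TGF-beta against 520 to 1342 in Cre cells, and to 393 to 833 in GFP cells with TGF-beta against 617 to 1270 in GFP cells. The 9 fibroblast markers also overlapped and summed to 14666 to 39391 CPM in Cre cells with TGF-beta against 19484 to 44322 in Cre cells, and to 17909 to 44197 in GFP cells with TGF-beta against 20847 to 46986 in GFP cells. No marker of these 4 lists was at 0 throughout a group, fewer cells of a type and less RNA per cell cannot be told apart in such bulk libraries, and the part of the other cell types in the chaperone values was not tested.

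In fibroblasts given no TGF-beta, the Cre virus was set against the GFP virus. None of the 10 genes passed (the smallest unadjusted p was 0.224), and by edgeR's quasi-likelihood test 0% of all genes did (169 genes, 1.11%, had an unadjusted p under 0.05; DESeq2 called 3 genes). With the block 26 genes (0.170%) passed, none of them among the 10. The largest difference was in Hspa1a, with 8.33 ± 0.944 CPM in Cre cells and 10.3 ± 2.67 CPM in GFP cells (SD, n = 4), a log2 difference of -0.31 with a 95% interval from -0.82 to 0.21 (adjusted p = 0.9997). It came mostly from preparation 4, which had 6.98 CPM in Cre cells and 14.1 CPM in GFP cells. Without that preparation it was -0.04. Hspe1 was higher in the Cre library in each preparation, at 53.2 ± 11.4 CPM in Cre cells and 46.2 ± 12.3 CPM in GFP cells, with a difference of 0.21 (interval -0.35 to 0.76, adjusted p = 0.9997). With the block its interval was 0.02 to 0.42, and the adjusted p over all genes was 0.827. Hsp90aa1 had 204, 139, 166 and 617 CPM in Cre cells, against 203, 104, 153 and 614 CPM in GFP cells, which is 0.07 on the log2 scale with an interval from -1.27 to 1.41, and from -0.15 to 0.40 with the block. The blocked intervals of Hsp90ab1 (-0.09 to 0.19), Hspa8 (-0.12 to 0.24), Dnaja1 (-0.09 to 0.22), Dnajb1 (-0.13 to 0.19), Hsph1 (-0.15 to 0.27) and Hspd1 (-0.09 to 0.28) also held 0. No gene of the 10 had groups that lay apart, against 1.47% of all genes. Direction was shared by all 4 preparations for 4 of the 10 genes, against 26.0% of all genes.

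Cre against GFP cells with TGF-beta is the comparison in which Hsp90aa1 had been noticed, and its values follow as a description. Hsp90aa1 had 386, 299, 493 and 997 CPM in Cre cells with TGF-beta, against 247, 161, 229 and 703 CPM in GFP cells with TGF-beta. The Cre library was higher in each preparation, by 0.64, 0.89, 1.11 and 0.50 on the log2(CPM + 0.5) scale, while the groups overlapped. The fitted difference was 0.70, with the block 0.81, and with the block and without preparation 4 0.90. No interval is given, since the gene was singled out in this comparison. Without the block it was 0.23 when the Cre library of preparation 4 was left out and 1.36 when the GFP library of preparation 4 was left out. Hsp90aa1 made up 13.4 ± 5.58% of HSP90 transcripts (Hsp90aa1 over Hsp90aa1 plus Hsp90ab1, per kb; SD, n = 4) in Cre cells with TGF-beta, 8.82 ± 5.53% in GFP cells with TGF-beta, 8.80 ± 6.16% in Cre cells and 8.65 ± 6.57% in GFP cells. By preparation the share was 11.2, 7.88, 13.6 and 21.0% in Cre cells with TGF-beta and 7.22, 4.69, 6.42 and 17.0% in GFP cells with TGF-beta.

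The other 9 genes lay nearer to 0. Hsp90ab1 differed by 0.02 and Hspa8 by -0.03 on the log2 scale, with preparations on both sides of 0. The J-domain gene Dnaja1 was higher in the Cre library in each preparation, averaging 149 ± 29.98 CPM in Cre cells with TGF-beta and 125 ± 26.6 CPM in GFP cells with TGF-beta. Its difference was 0.25, and 0.11 without the Cre library of preparation 4. Hspe1 was also higher in each preparation (0.22, and -0.10 without the Cre library of preparation 4). Hspa1a was lower in each, averaging 5.21 ± 0.877 CPM in Cre cells with TGF-beta and 7.11 ± 2.59 CPM in GFP cells with TGF-beta, a difference of -0.44 that was -0.17 without preparation 4. Hspa1b differed by -0.14, which turned to 0.13 without preparation 4. Hspd1 (0.12), Hsph1 (-0.11) and Dnajb1 (-0.06) had preparations on both sides of 0. None of the 10 genes had groups that lay apart, against 1.58% of all genes. The share of all genes with 1 direction in all 4 preparations is not given for this comparison or for the difference of responses below. In another comparison, Cre against GFP cells without TGF-beta, it was 26.0%. How common such shared directions are here is therefore not known, and they are not read as a result. Over all genes tested, none was called without the block (0%; 268 genes, 1.75%, at an unadjusted p under 0.05), and 10 genes (0.0654%) were called with it.

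**Figure D4:**
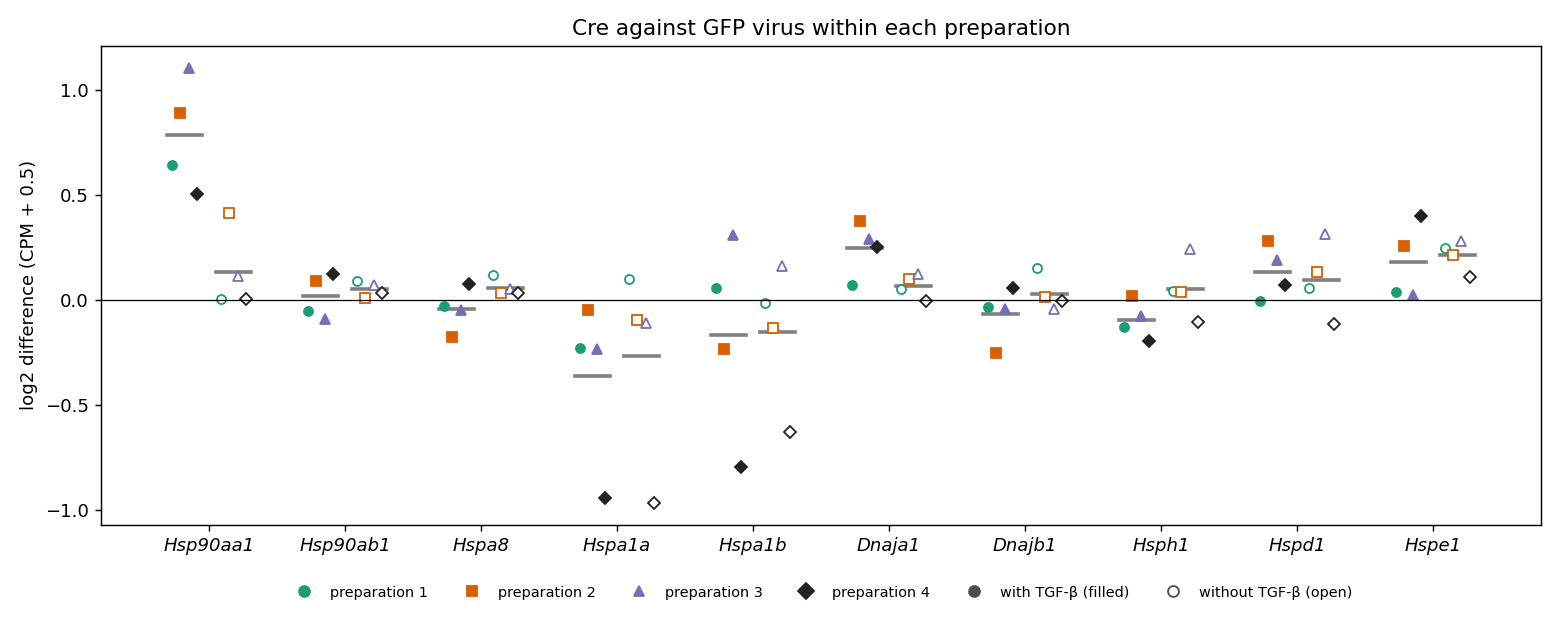
Log2 difference of CPM + 0.5 between the Cre and the GFP library of the same preparation, for each gene, with TGF-beta as filled and without it as open symbols and a bar at the mean of 4 preparations. Hsp90aa1 with TGF-beta lies between 0.50 and 1.11, Dnaja1 with TGF-beta between 0.07 and 0.38, and the lowest points of Hspa1a and Hspa1b in both media are preparation 4.

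The difference between the TGF-beta responses of Cre and GFP cells was also taken as a description, since it holds the libraries in which Hsp90aa1 was singled out. For Hsp90aa1 it was 0.63, with the block 0.68, with all 4 preparations above 0 (0.64, 0.47, 0.99 and 0.50). No interval is given here either. Without the block it was -0.18 when the GFP library of preparation 4 without TGF-beta was left out and 1.37 when the Cre library of preparation 4 without TGF-beta was. For the other 9 genes the fitted difference ran from -0.16 for Hsph1 to 0.19 for Dnaja1. No gene was called with or without the block (0%; 90 genes, 0.589%, at an unadjusted p under 0.05 without it). These values share their libraries with the comparisons above.

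Related chaperone genes, listed with earlier results of these data known, are given to place the 10 genes in their pathway. The shares of all genes to read their counts against are 14.0% higher and 16.3% lower in Cre cells, and 13.8% higher and 15.3% lower in GFP cells. Among 37 co-chaperones and small heat shock proteins, 12 rose and 1 fell with TGF-beta in Cre cells, and 14 rose and 1 fell in GFP cells. The median log2 difference was 0.31 in Cre cells and 0.35 in GFP cells. Hspa4, another HSP110 family gene, averaged 460 ± 4.82 CPM in Cre cells with TGF-beta against 298 ± 14.6 CPM in Cre cells, and 451 ± 15.7 CPM in GFP cells with TGF-beta against 284 ± 25.3 CPM in GFP cells (SD, n = 4; log2 0.63 and 0.67, adjusted p = 2.9e-05 and 1.75e-05). Bag2, an exchange factor of HSP70, rose by 1.01 in Cre cells and 1.04 in GFP cells. The small heat shock protein gene Hspb1 rose by 0.90 in Cre cells and 0.84 in GFP cells (edgeR adjusted p = 0.00095 and 0.00174). Cdc37, which brings kinases to HSP90, rose by 0.41 in Cre cells and 0.50 in GFP cells (edgeR adjusted p = 0.00249 and 0.000652). The atypical HSP70 gene Hspa12a was the 1 that fell, with log2 differences of -1.69 in Cre cells and -1.65 in GFP cells.

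The cytosolic chaperonin TRiC, which folds actin and tubulin, and its feeder prefoldin had none of 14 genes lower, 11 higher in Cre cells (median 0.58) and 10 higher in GFP cells (median 0.57). Cct2, a TRiC subunit, averaged 473 ± 33.9 CPM in Cre cells with TGF-beta against 298 ± 20.2 CPM in Cre cells (log2 0.66, adjusted p = 3.51e-05), and the prefoldin gene Pfdn1 rose by 1.00 in Cre cells (adjusted p = 0.000102). In GFP cells Cct2 and Pfdn1 rose by 0.72 and 0.92 (edgeR adjusted p = 1.75e-05 and 0.000235). Of 18 other mitochondrial chaperones and proteases, 6 rose in Cre cells, 7 rose in GFP cells and none fell. Hspa9, the mitochondrial HSP70, averaged 632 ± 21.8 CPM in Cre cells with TGF-beta against 355 ± 59.9 CPM in Cre cells (log2 0.83, adjusted p = 0.00056), and rose by 0.92 in GFP cells (edgeR adjusted p = 0.000253). The protease gene Lonp1 rose by 0.78 in Cre cells and 0.86 in GFP cells. Of 18 chaperones of the endoplasmic reticulum 1 rose (Fkbp10, a collagen chaperone, by 0.61 in Cre cells and 0.72 in GFP cells) and 1 fell (Dnajc10, a disulfide reductase) in each virus group. With the block, TGF-beta libraries were called higher in Cre cells for 24 of the 37 co-chaperones, 13 of the 14 TRiC and prefoldin genes, 10 of the 18 mitochondrial and 8 of the 18 endoplasmic reticulum genes, against 25.2% of all genes. In GFP cells the same counts were 26, 12, 10 and 8, against 22.6% of all genes, with at most 1 gene lower in each list of either virus group. Without preparation 4 and without the block they were 17, 12, 8 and 5 in Cre cells, against 20.2% of all genes, with 2 lower in the endoplasmic reticulum list, and 19, 11, 8 and 5 in GFP cells, against 18.6% of all genes.

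Hsf1, which encodes the main heat shock factor, averaged 35.6 ± 5.12 CPM in Cre cells with TGF-beta and 32.9 ± 1.62 CPM in Cre cells (log2 0.11, adjusted p = 0.390), and 36.7 ± 2.22 CPM in GFP cells with TGF-beta and 35.1 ± 1.29 CPM in GFP cells (log2 0.06, adjusted p = 0.665). Of the 5 heat shock factor genes and regulators tested, 1 rose in Cre cells (Hsbp1l1, at about 1 CPM or less in each group) and none in GFP cells. Among 10 immediate early genes, which respond to handling and other stress, 2 rose and 2 fell in Cre cells, and 3 rose and 2 fell in GFP cells. Both virus groups had Ier3 higher (log2 1.57 in Cre cells and 1.70 in GFP cells), Jun higher (0.85 and 0.90), Fos lower (-1.58 and -1.21) and Dusp1 lower (-1.17 and -1.18). No gene of these lists passed in Cre against GFP cells without TGF-beta, with or without the block.

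**Figure D5:**
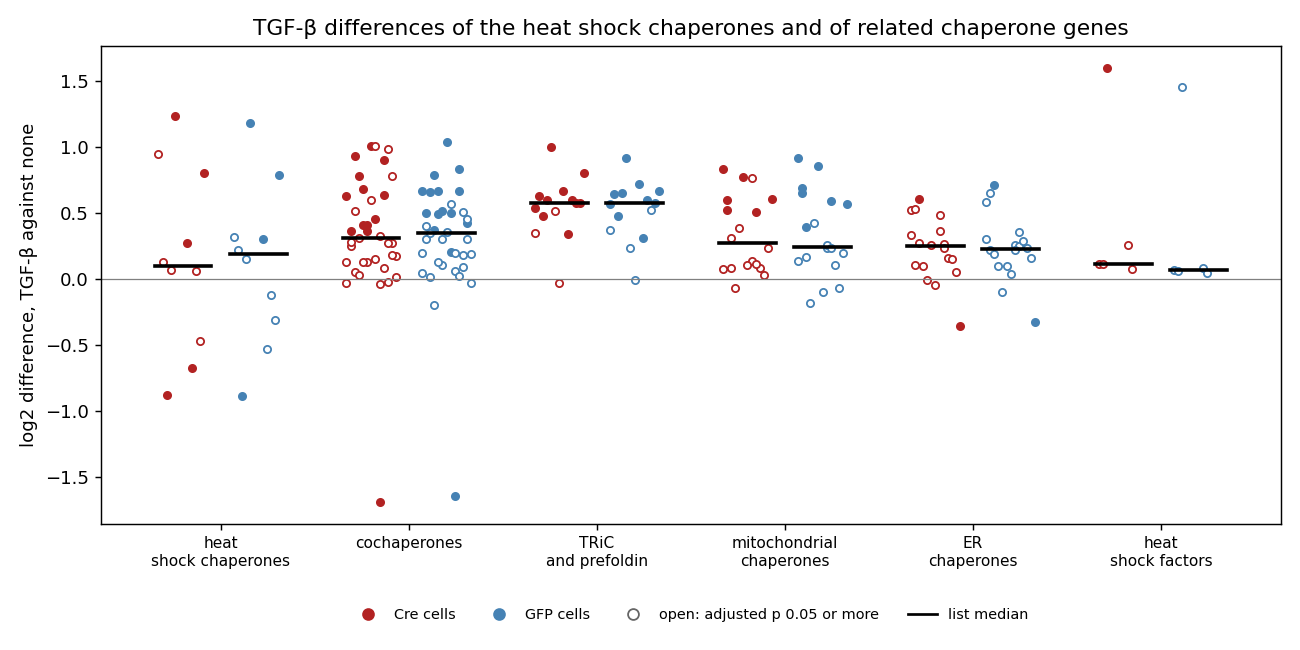
Fitted log2 difference between cells with and without TGF-beta for each gene of the 10 heat shock chaperones and 5 related lists. Cre cells are in red and GFP cells in blue, filled where the adjusted p was under 0.05, with a bar at the list median. Hsp90aa1, at 0.95 in Cre cells and 0.32 in GFP cells, was drawn open by the same rule, and its symbol is not to be read as a test. The 10 genes spread from -0.89 to 1.23 around medians of 0.10 and 0.19, and TRiC and prefoldin lie around medians of 0.58 and 0.57.

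As a description of likeness, the mean log2 CPM of the 10 genes was set against each other gene after removing the preparation means, over 16 libraries and 8795 genes of at least 10 CPM. The closest were Dbf4 (Pearson r 0.903), Pdhx (0.899), Mtg1 (0.898), Nefm (0.896), Mrpl35 (0.893) and Utp6 (0.884). Among the 10 genes themselves r ran from 0.824 for Hspd1 to -0.565 for Hspa1b, so the mean follows the genes higher with TGF-beta. All these libraries share the same split by TGF-beta.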

How the data were processed

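The data were raw counts of reads per gene as deposited by the authors, whole numbers without normalization, for 55414 Ensembl genes in 16 libraries. The submitters' processing notes name FastQC 0.10.1, HTSeq 0.10.0 and the build mm39 (GRCm39). The sources used here do not give the aligner, the annotation or the strand setting, so antisense, overlapping and near-identical genes are uncertain. Symbols, transcript lengths and GC content came from GENCODE M21, an annotation of the earlier build GRCm38, which matched 52081 identifiers.

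The filterByExpr filter (a count of 10, a total of 15) kept 15285 genes with 99.9% of the counts. CPM used TMM-scaled library sizes (factors 0.908 to 1.12). All 16 libraries entered a single robust quasi-likelihood fit with 1 mean per group (R 4.3.3 with edgeR 4.0.16 and limma 3.58.1; prior count 0.125). P-values were adjusted by Benjamini-Hochberg over all genes, and calls were made at an adjusted p under 0.05. The test was tried on simulated data. Its trial without the block held no preparation differences, unlike these libraries, and so does not gauge the calls made without the block. Fold changes are log2 values, and the share of the variance was split on log2(CPM + 0.5).

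The deposited library names tie each replicate number to 1 cell preparation. As a check of that pairing, deviations from group means gave r between 0.364 and 0.888 (median 0.566) for the 24 pairs with a shared number, and a median r of -0.126 for the 72 others. Results with the preparation as a block are therefore printed where they changed a call. Biological variation (BCV) came to 0.254 in the fit without that term and to 0.123 with it. Without the block, the p-values use the spread among libraries within groups. That spread includes differences among the 4 preparations, and libraries of the same preparation are treated as independent. With the block, the p-values use the spread left after preparation differences are removed. The number of hearts per preparation is not stated. All 24 pairs of libraries within a group differed by more than sampling noise, with a chi-square of 6.59 to 214 per gene.

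The 10 genes, the related lists and the markers were chosen with earlier results of these data known. All 10 genes are named. Of each related list, the genes named are among the up to 4 with the smallest adjusted p per comparison, plus Hsf1. Genes named for likeness are the 6 with the highest r. Alternatives were the block, DESeq2 1.42.0, RLE scaling, no filter, a filter of 5 CPM in 4 libraries, only the libraries compared, removal of GC content and length trends with the block, and leaving out each library or preparation. Added after seeing the data were the block without each preparation, summed counts of Hspa1a and Hspa1b, and list counts without preparation 4. Promoter sequences are RefSeq's (GRCm38.p6).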

Additional observations from a re-analysis of the deposited data

Results flagged for a closer look

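In 4 of the 40 sets of 4 libraries examined (10 genes in 4 groups), a library lay further from its neighbours than Dixon's 95% limit for 4 values. About 1 in 20 sets is marked by chance. Hsp90aa1 was at 702.62 CPM in the preparation 4 library of GFP cells with TGF-beta, with the other 3 between 161 and 247 CPM. Hsp90aa1 was at 616.65 CPM in the preparation 4 library of Cre cells, with the others between 139 and 204 CPM. Hspe1 was at 112.41 CPM in the preparation 4 library of GFP cells with TGF-beta, with the others between 68.0 and 69.8 CPM. Dnajb1 was at 59.646 CPM in the preparation 2 library of Cre cells, the lowest, with the others between 64.1 and 65.1 CPM.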

How the results depend on the processing

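The replicate block, which pairs libraries by cell preparation, called 8030 genes with TGF-beta in Cre cells and 7498 in GFP cells, and 10 and 26 genes in Cre against GFP cells with and without TGF-beta. It called 3 of 9 chaperone genes lower in GFP cells. Apart from the calls printed above it changed none. The replicate block with GC content and length trends removed called 8857, 8713, 34 and 27 genes in the same 4 comparisons, with medians of the 10 genes of 0.298 in Cre and 0.348 in GFP cells. It called 5 of 9 genes higher in each virus group, and turned Dnaja1 in GFP cells to 0.0523. DESeq2 called 3 genes in Cre against GFP cells without TGF-beta. In Cre cells, RLE scaling and no filter each left 1 gene lower (Hspa1b), and a fit of only the libraries compared left 1 higher (Hspd1). Of all values under these alternatives, 322 of 340 for single genes and 91 of 108 for counts and medians kept their direction and their call, or stayed within the spread or within 1.5 times. The cause of these shifts was not tested.

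Leaving out 1 library or preparation, without the block, gave 2317 to 6479 genes called with TGF-beta in Cre cells, 2239 to 6055 in GFP cells and 0 to 17 in Cre against GFP cells without TGF-beta. Genes higher ranged from 1 to 3 of 9 in Cre and 0 to 3 of 9 in GFP cells, and genes lower from 0 to 2 in both. With the block and without 1 preparation at a time, the calls ranged from 6288 to 8586 in Cre cells, 5719 to 8051 in GFP cells, 0 to 232 with and 0 to 114 without TGF-beta for Cre against GFP cells, and genes lower in GFP cells from 1 to 3. The median of the 10 genes ranged, without the block, from -0.0278 to 0.205 with TGF-beta in Cre cells, -0.0728 to 0.249 in GFP cells, -0.0844 to 0.114 and -0.0831 to 0.180 in Cre against GFP cells with and without TGF-beta, and -0.153 to 0.158 for the difference of responses. Directions that turned when 1 library or preparation was left out were, with TGF-beta in Cre cells, those of Hspa8 (-0.0283 to 0.22), Dnaja1 (-0.0666 to 0.23) and Dnajb1 (-0.0273 to 0.15), and in GFP cells those of Hsp90aa1 (-0.34 to 1.14) and Dnaja1 (-0.25 to 0.0625). In Cre against GFP cells without TGF-beta they were those of Hsp90aa1 (-0.67 to 0.88), Hspa1b (-0.29 to 0.0152), Dnaja1 (-0.10 to 0.25), Dnajb1 (-0.0121 to 0.0691), Hsph1 (-0.11 to 0.25) and Hspd1 (-0.12 to 0.37). With the block, Dnajb1 turned to -0.0140 in Cre cells without preparation 4 and, in Cre against GFP cells without TGF-beta, to -0.0117 without preparation 1, and Hsph1 to -0.0023 there without preparation 3. The blocked fit without preparation 3 called 6972 genes in Cre cells. In these 3 comparisons, no gene whose direction turned had passed the test in that fit. In Cre against GFP cells with TGF-beta, without the block, only Hsp90aa1, Hspa1a and Dnaja1 kept their direction throughout, and those that turned were Hsp90ab1 (-0.0311 to 0.0651), Hspa8 (-0.19 to 0.0761), Hspa1b (-0.39 to 0.13), Dnajb1 (-0.15 to 0.0229), Hsph1 (-0.33 to 0.15), Hspd1 (-0.0716 to 0.35) and Hspe1 (-0.0969 to 0.43). For the difference of responses only Dnaja1 and Dnajb1 kept theirs, while Hsp90aa1 ran from -0.18 to 1.37, Hsp90ab1 from -0.0828 to 0.0136, Hspa8 from -0.25 to 0.0179, Hspa1a from -0.33 to 0.11, Hspa1b from -0.23 to 0.20, Hsph1 from -0.38 to 0.10, Hspd1 from -0.24 to 0.27 and Hspe1 from -0.30 to 0.23. With the block, Hsp90ab1 and Hspa1b turned in Cre against GFP cells with TGF-beta, and Hsp90ab1, Hspa1b, Hspd1 and Hspe1 in the difference of responses when 1 preparation was left out, to at most 0.0938 from 0. The block itself turned Hspa1b (-0.0028) and Hspe1 (-0.0260) in the difference of responses. Leaving out preparation 4 raised the calls to 6479 in Cre cells, 6055 in GFP cells and 17 in Cre against GFP cells without TGF-beta, and the cause was not tested. The smallest count behind any of these values was 106, for Hspa1a.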
